A study of Homo sapiens with 8 samples.

Results

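The 51 genes described here serve the folding, N-glycosylation and disposal of proteins in the endoplasmic reticulum (ER). They were listed by gene symbol, and a probe was taken for a gene where the platform annotation gave that symbol. Of the 51 genes, 49 had a named probe, 64 probes in all, and 47 were detected widely enough to be tested among 9272 genes. SEC61G and HERPUD1 had no named probe. The 1 probe for PDIA3 was detected on 0 arrays of either group. The brighter SEC63 probe was detected on 2 of 3 arrays with TRPM2-AS siRNA and 1 of 4 with control siRNA, and the dimmer on 1 of 3 and 0 of 4. Neither gene was therefore tested, and a probe without signal does not show that its gene was silent.

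The cells were PC3, an established line from a human prostate carcinoma. Cells of 1 group received an siRNA against TRPM2-AS, a non-coding transcript antisense to the cation channel gene TRPM2, and cells of the other group a non-specific control siRNA. RNA was taken after 48 hours from 4 samples of each group and hybridised to Illumina bead arrays, which report a fluorescence intensity for each probe. Both groups were grown in the same serum-containing medium and both were transfected, with a single TRPM2-AS siRNA named in the labels and no second siRNA or untransfected cells. Raw signals could be traced to 3 samples with TRPM2-AS siRNA (replicates 1, 2 and 4) and 4 with control siRNA (replicates 1 to 4). The raw column left out, numbered 2 under the TRPM2-AS siRNA name, matched no sample (highest Spearman rho 0.832, against 1.0 for the 7 others). Whether replicates came from separate cultures is not stated, so the error in every p-value is the spread over these arrays and could be purely technical.

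Depletion of the target was not analysed here, because 0 probes carried the symbol TRPM2-AS or TRPM2. Arrays with TRPM2-AS siRNA detected 13832 to 14318 probes and arrays with control siRNA 13163 to 13972, at a detection p under 0.01. All 4 epithelial markers of the line were detected on all 7 arrays. Their summed intensity was 6385 to 7256 with TRPM2-AS siRNA and 8873 to 10355 with control siRNA, and KRT18, KRT19 and EPCAM were lower and KRT8 was not called (log2 fold change of EPCAM -1.14, limma adjusted p = 6.29e-06). Of the luminal prostate markers reported here, KLK3 was detected on 0 arrays and TMPRSS2 on 3 (sums 74 to 105 and 59 to 94). Of the blood markers PTPRC, CD3E and HBB were detected on 0 arrays and CD14 on 1 of 3 arrays with TRPM2-AS siRNA and 4 of 4 with control siRNA (sums 143 to 166 and 148 to 183). Among fibroblast and endothelial markers COL1A2, DCN and PECAM1 were detected on 0 arrays, while COL1A1 was detected on all 7 and was higher with TRPM2-AS siRNA (sums 276 to 287 and 187 to 208, log2 fold change 0.75, limma adjusted p = 0.000403). The part of these marker differences in the results that follow was not tested. Each array measures a bulk extract, in which fewer cells of a kind and less RNA per cell cannot be told apart.

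Secreted and membrane proteins enter the ER through the SEC61 channel, and the oligosaccharyltransferase attaches a preassembled sugar tree to them on the way in. HSP70 and HSP90 chaperones, disulfide isomerases and the lectins calnexin and calreticulin then help them fold, and proteins that fail are pulled back to the cytosol and degraded (ER-associated degradation, ERAD). When unfolded proteins build up, the sensors PERK, IRE1 and ATF6 start the unfolded protein response, which raises many of these genes through the factors ATF4, XBP1 and ATF6. Secretory epithelia such as the prostate depend on this machinery.

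With TRPM2-AS siRNA, the calls among the 47 members differed in direction between the role lists. Among 10 HSP70 and HSP90 chaperones and co-chaperones, 6 were higher and 0 lower, and among 10 ERAD genes 5 were higher and 0 lower. Among 7 lectin chaperones and glycan-processing genes, 0 were higher and 3 lower. The shares to read these against were large: of all genes, 27.4% were called higher and 29.6% lower (limma, Benjamini-Hochberg adjusted p under 0.05 over 9272 genes). Of the 47 members tested, 17 were higher (36.2%) and 8 lower, and the 25 changed members (53.2%) were a share close to that of all genes (57.0%). The median log2 fold change of the 47 members was 0.20, against -0.01 for all genes. Quantile normalization gave every array the same distribution of values, which holds the median over all genes near 0. At least 2-fold changes came to 4 members higher (8.51%, against 7.88% of all genes) and 2 lower (4.26%, against 9.65%). The groups did not overlap in 26 members (55.3%), against 57.3% of all genes. Of the 47 members, 19 lay apart in the higher direction, as did 27.8% of all genes. In the lower direction 7 of the 47 lay apart, as did 29.5% of all genes. The forest plot by role and the plot of shares by list show how the members divided by role. The members and lists were chosen with earlier results of these data known, so the counts describe these lists and are not tests of them.

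**Figure D1:**
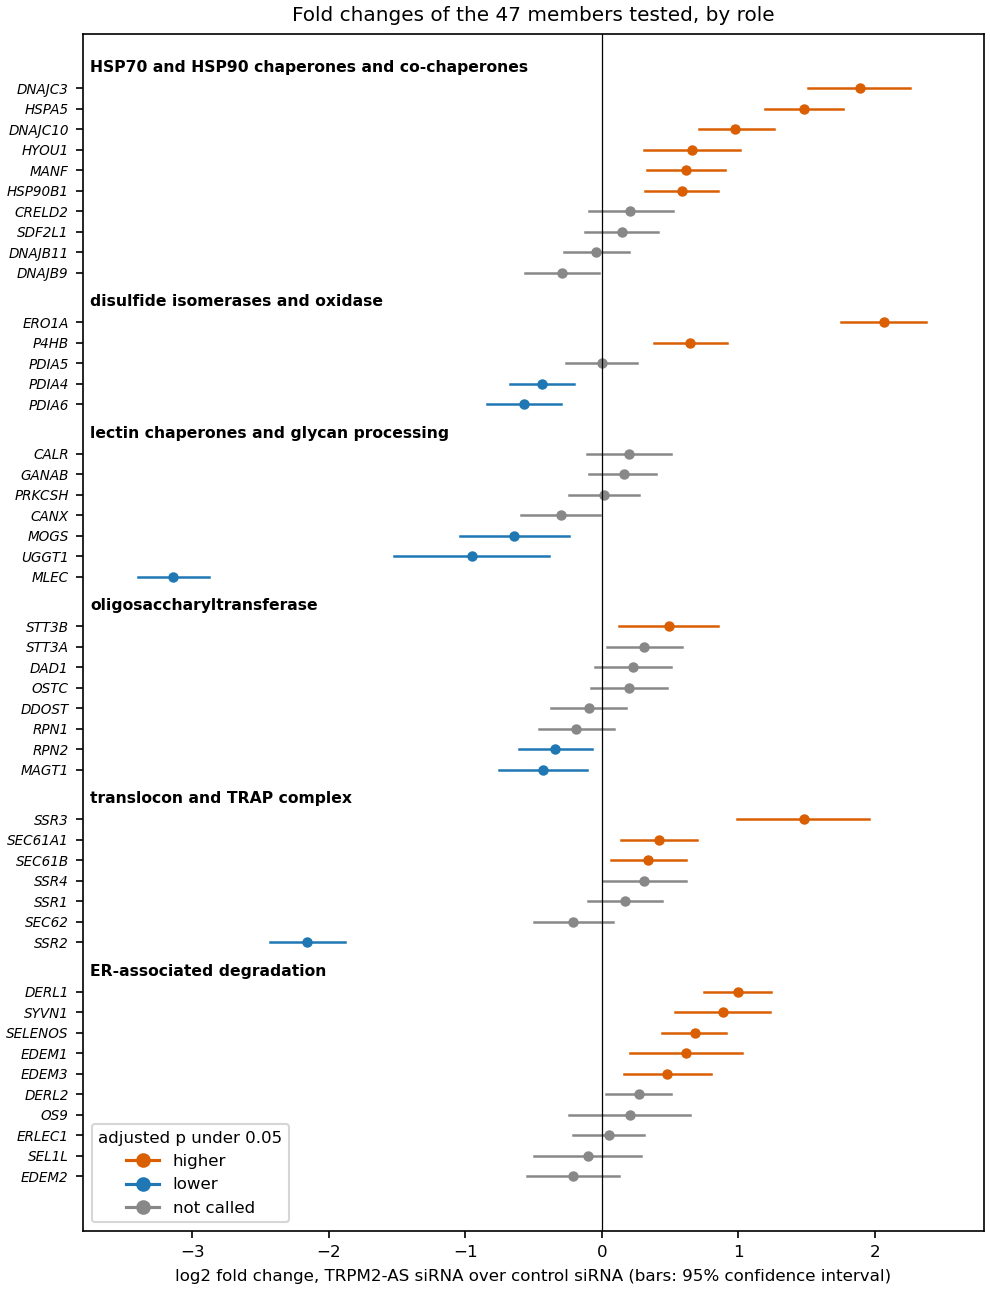
Log2 fold change (x axis, TRPM2-AS siRNA over control siRNA) of each of the 47 members tested, grouped by role, with points for the limma estimate and bars for its 95% confidence interval. Orange marks members called higher, blue members called lower and grey those not called: chaperone and ERAD calls all lie right of 0, and MLEC (-3.14) and SSR2 (-2.16) lie furthest left.

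**Figure D2:**
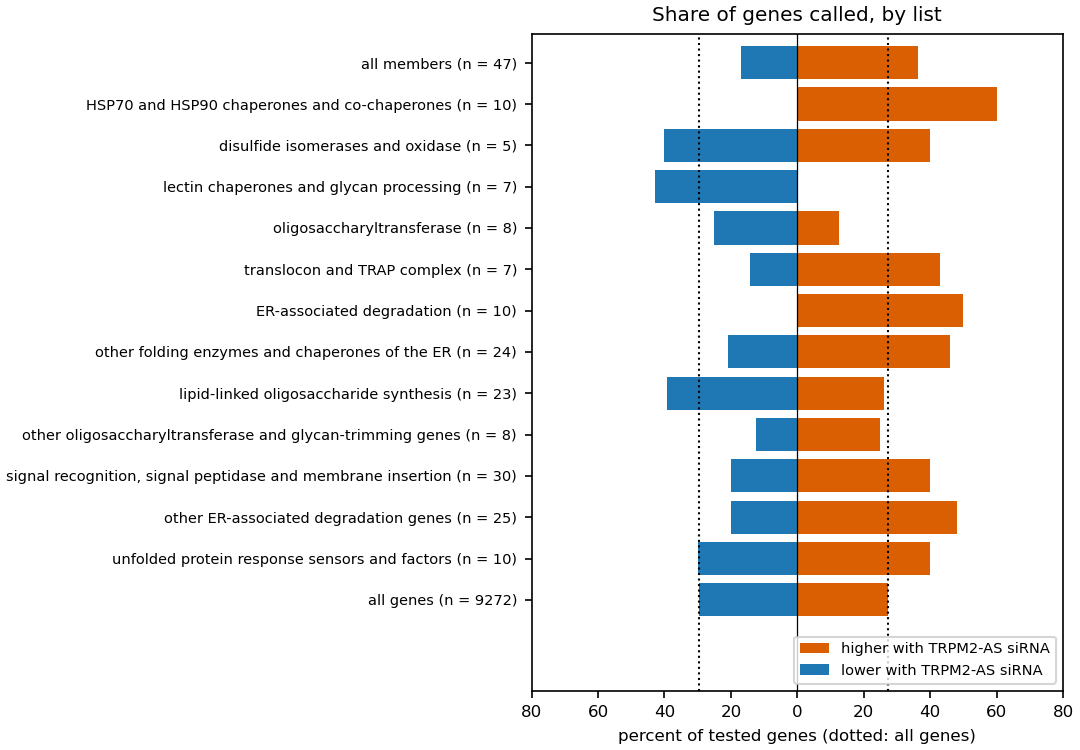
Percent of tested genes (x axis) called higher (orange, to the right) and lower (blue, to the left) with TRPM2-AS siRNA in each list, with the number tested in brackets and dotted lines at the shares of all genes, 27.4% higher and 29.6% lower. The chaperone and ERAD lists of members have no bar to the left and the lectin and glycan-processing list has none to the right.

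The chaperones were led by DNAJC3 and HSPA5. HSPA5 encodes BiP, the HSP70 of the ER lumen and the chaperone that holds the stress sensors inactive. Its log2 intensity was 11.28, 11.65 and 11.51 with TRPM2-AS siRNA, against 9.92, 9.86, 10.15 and 10.06 with control siRNA. All 3 values lay above all control values, a 2.8-fold difference (log2 fold change 1.48 ± 0.13 SE, limma adjusted p = 2.78e-06). DNAJC3 encodes P58IPK, a J-domain co-chaperone of BiP known also as an inhibitor of the eIF2alpha kinases. It read 7.87, 7.76 and 7.62 with TRPM2-AS siRNA, against 6.04, 5.70, 6.22 and 5.48 with control siRNA, where 2 of 4 arrays detected it. The groups lay far apart, with a fitted fold of 3.70 (log2 fold change 1.89 ± 0.17 SE, limma adjusted p = 3.87e-06), a value that depends on signals near background in the controls: on the authors' processed values, which have no background correction, its log2 fold change was 1.01.

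**Figure D3:**
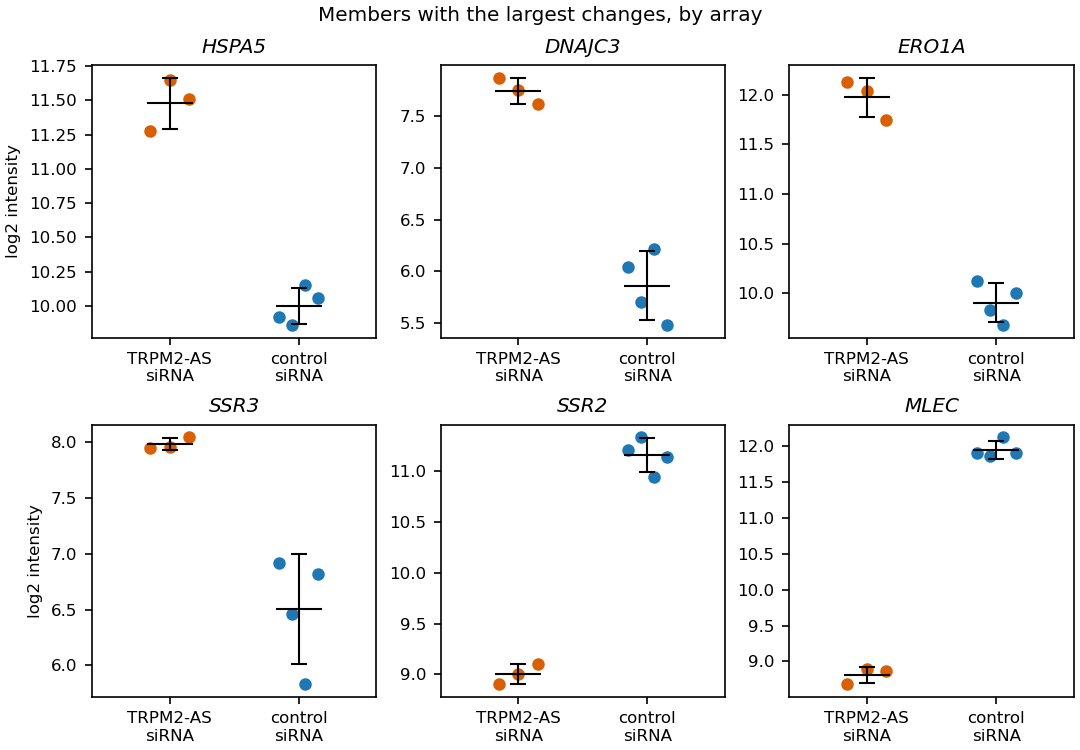
Log2 intensity (y axis, its range set for each gene) of 6 members on each array, TRPM2-AS siRNA (3 arrays, orange) beside control siRNA (4 arrays, blue); bars give the mean and SD. HSPA5, DNAJC3, ERO1A and SSR3 lie above all control arrays and SSR2 and MLEC below all of them.

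DNAJC10, a J-domain protein that reduces disulfides of proteins bound for degradation, read 10.44, 10.48 and 10.37 with TRPM2-AS siRNA, against 9.64, 9.43, 9.20 and 9.52 with control siRNA. It was 1.98-fold higher (limma adjusted p = 5.2e-05), and its other probe, detected on 1 of 4 control arrays, gave a log2 fold change of 0.82. HYOU1, a large HSP70-related chaperone that serves as nucleotide exchange factor for BiP, read 10.72, 10.22 and 10.21 with TRPM2-AS siRNA, against 9.97, 9.50, 9.72 and 9.71 with control siRNA, and was 1.58-fold higher (limma adjusted p = 0.00426). MANF, a secreted ER stress protein that binds BiP, read 14.38, 14.63 and 14.68 with TRPM2-AS siRNA and 13.88, 13.75, 14.07 and 14.08 with control siRNA, 1.53-fold higher (limma adjusted p = 0.00188). In all 3 genes the groups did not overlap.

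HSP90B1 encodes GRP94, the HSP90 of the ER. It read 13.84, 14.07 and 14.19 with TRPM2-AS siRNA, against 13.44, 13.48, 13.51 and 13.34 with control siRNA, a 1.5-fold difference (log2 fold change 0.59 ± 0.12 SE, limma adjusted p = 0.00146) without overlap. The other 4 chaperone genes did not pass. The J-domain co-chaperone DNAJB9, a feedback regulator of IRE1, had a log2 fold change of -0.29 (95% interval -0.56 to -0.02, limma adjusted p = 0.0661), and was called lower in 4 of 19 alternatives: the authors' processed values with and without a replicate block, and the comparison without TRPM2-AS siRNA replicate 1 or without control siRNA replicate 3. DNAJB11, another BiP co-chaperone, had -0.04 (-0.28 to 0.20), SDF2L1, which works with the J-domain proteins, 0.15 (-0.12 to 0.41) and CRELD2, an ER stress-inducible protein, 0.21 (-0.09 to 0.52). These intervals leave out a 2-fold change in either direction.

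Promoters of several of these genes are known to carry the ER stress element (ERSE), to which NF-Y and ATF6 or XBP1 bind. The sequences are shown because members that share the element did not move alike. RefSeq windows of 300 bases, from 250 before to 50 after each annotated start (GRCh38.p14), were found for 46 of the 51 members and searched on both strands for the ERSE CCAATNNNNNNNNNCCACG, the ERSE-II ATTGGNCCACG and the UPRE core TGACGTGG. Only exact matches to the fixed letters were counted, so near copies, as in the HSPA5 window, are not marked. Matches can overlap, as the ERSE-II and the UPRE core do in HYOU1. The ERSE was found in 6 member genes of 46 and in 0.0916% of 27305 genes with a window, the ERSE-II in 3 members and 0.0696% of genes, and the UPRE core in 5 members and 0.927% of genes. Since the element is already known from several of these promoters, the shares describe the windows and are not a test. Capitals mark the matched bases in the windows, each read 5′ to 3′ on the strand of its gene.
HSPA5, chr9:125241294-125241593, minus strand: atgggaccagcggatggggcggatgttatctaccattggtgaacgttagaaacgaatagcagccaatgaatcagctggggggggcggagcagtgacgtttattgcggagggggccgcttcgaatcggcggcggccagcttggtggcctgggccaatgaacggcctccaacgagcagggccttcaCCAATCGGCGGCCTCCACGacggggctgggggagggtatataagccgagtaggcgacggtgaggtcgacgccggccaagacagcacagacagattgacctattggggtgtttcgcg
HSP90B1, chr12:103930160-103930459, plus strand: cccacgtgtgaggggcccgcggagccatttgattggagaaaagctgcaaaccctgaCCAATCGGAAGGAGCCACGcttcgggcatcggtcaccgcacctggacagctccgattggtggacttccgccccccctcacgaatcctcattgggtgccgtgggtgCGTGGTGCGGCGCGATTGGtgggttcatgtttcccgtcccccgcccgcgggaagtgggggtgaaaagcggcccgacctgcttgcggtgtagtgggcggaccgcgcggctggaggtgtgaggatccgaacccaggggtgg
HYOU1, chr11:119057156-119057455, minus strand: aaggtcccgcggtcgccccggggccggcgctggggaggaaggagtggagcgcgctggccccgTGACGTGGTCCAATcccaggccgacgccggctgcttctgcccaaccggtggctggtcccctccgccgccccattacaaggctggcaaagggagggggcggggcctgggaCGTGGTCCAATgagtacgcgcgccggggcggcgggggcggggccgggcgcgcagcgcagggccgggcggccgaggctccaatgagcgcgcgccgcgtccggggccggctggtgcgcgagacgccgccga
PDIA6, chr2:10812736-10813035, minus strand: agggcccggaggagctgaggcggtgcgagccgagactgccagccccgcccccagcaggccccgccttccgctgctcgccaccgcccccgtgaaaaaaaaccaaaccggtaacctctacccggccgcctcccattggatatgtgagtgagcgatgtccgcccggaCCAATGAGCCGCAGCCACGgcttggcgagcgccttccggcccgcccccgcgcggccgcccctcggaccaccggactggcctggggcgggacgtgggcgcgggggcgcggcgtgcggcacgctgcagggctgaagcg
CALR, chr19:12938359-12938658, plus strand: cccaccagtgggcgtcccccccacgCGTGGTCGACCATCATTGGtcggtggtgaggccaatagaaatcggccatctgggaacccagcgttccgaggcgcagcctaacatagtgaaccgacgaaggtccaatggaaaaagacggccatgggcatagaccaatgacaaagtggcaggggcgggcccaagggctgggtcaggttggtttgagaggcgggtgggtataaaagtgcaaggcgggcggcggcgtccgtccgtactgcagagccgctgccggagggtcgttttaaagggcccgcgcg

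Of the 6 members with an ERSE, HSPA5 and HSP90B1 were higher with TRPM2-AS siRNA, PDIA6 was lower, and CALR, CANX and CRELD2 were not called. HSP90B1 held 2 exact matches, at bases -194 to -176 and -89 to -71, with the annotated start as base 0. HSPA5 held 1 exact match at -66 to -48. These are not counts of all stress elements in a promoter, since near copies were left out. PDIA6, which was lower, held 1 exact match at -86 to -68, at 1 of its 2 annotated starts. Of the members with an ERSE-II, HYOU1 was higher, SDF2L1 was not called and HERPUD1 was not tested. Of those with a UPRE core, HYOU1, DNAJC10 and SSR3 were higher and SEC62 and SSR4 were not called. A match describes these letters and is no evidence of binding.

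**Figure D4:**
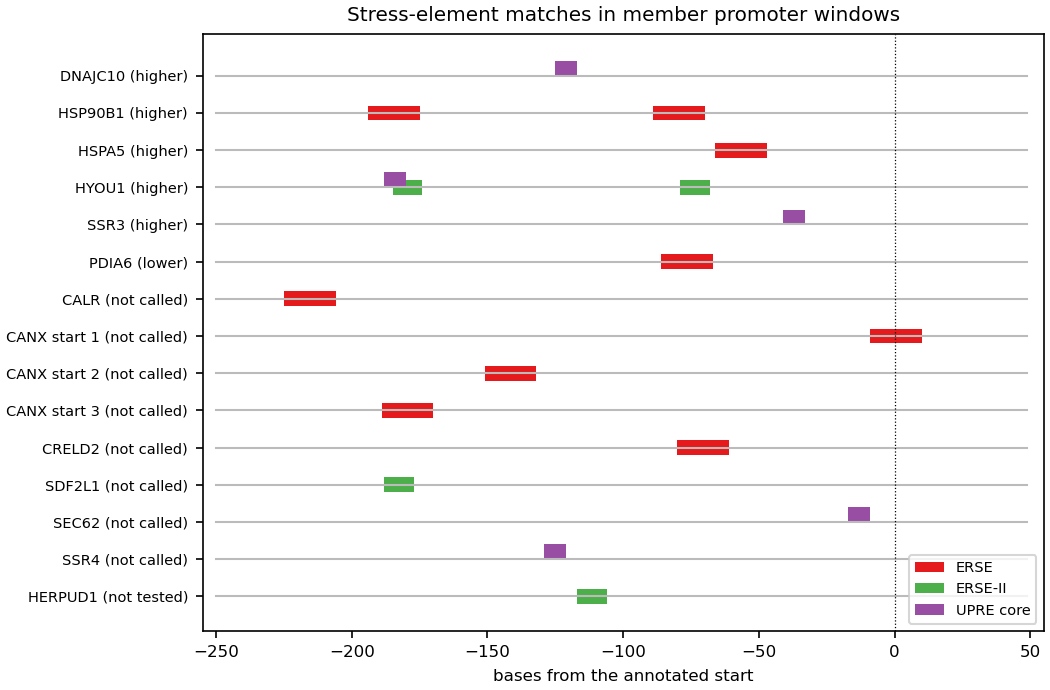
Position of each motif match (coloured boxes) in the 300-base promoter windows of the members that hold one, in bases from the annotated start (x axis, dotted line at 0), with the call for the gene in brackets. Rows run from genes called higher to those called lower, not called and not tested: ERSE matches stand in all of the first 3 classes.

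Genes of disulfide formation went both ways. ERO1A encodes the oxidase that passes oxidising equivalents to the disulfide isomerases, and it is known to be induced by hypoxia and by CHOP. It read 12.13, 12.04 and 11.75 with TRPM2-AS siRNA, against 10.12, 9.83, 9.68 and 10.00 with control siRNA. No value of either group came near the other, and ERO1A had the largest rise of the 47 members, 4.19-fold (log2 fold change 2.07 ± 0.14 SE, limma adjusted p = 5.23e-07). P4HB, the archetypal protein disulfide isomerase, read 13.42, 13.84 and 13.70 with TRPM2-AS siRNA and 12.98, 12.99, 13.06 and 12.97 with control siRNA, 1.57-fold higher without overlap (limma adjusted p = 0.000861).

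Another pair of isomerases fell. PDIA6 read 10.87, 10.50 and 10.72 with TRPM2-AS siRNA, against 11.21, 11.17, 11.39 and 11.30 with control siRNA, a 1.49-fold lower level (log2 fold change -0.57 ± 0.12 SE, limma adjusted p = 0.00219). PDIA4 read 7.91, 8.09 and 7.94 with TRPM2-AS siRNA, against 8.46, 8.45, 8.39 and 8.36 with control siRNA, 1.35-fold lower (limma adjusted p = 0.0047). Neither gene overlapped between groups. PDIA5 had a log2 fold change of 0.00 (95% interval -0.26 to 0.26, limma adjusted p = 0.994).

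The lectin and glycan-processing list held the largest fall of all members. MLEC encodes malectin, a membrane lectin of the ER that binds diglucosylated N-glycans soon after their transfer. It read 8.68, 8.89 and 8.86 with TRPM2-AS siRNA, against 11.91, 11.86, 12.13 and 11.90 with control siRNA. The groups were separated by more than the spread within either, with an 8.82-fold lower level (log2 fold change -3.14 ± 0.12 SE, limma adjusted p = 1.25e-08), and all 7 arrays detected it. MLEC had 1 named probe, so a second probe could not be set beside it.

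UGGT1 and MOGS were also lower. UGGT1, the glucosyltransferase that marks unfolded glycoproteins for another round with calnexin, read 7.71, 7.34 and 7.45 with TRPM2-AS siRNA, against 8.89, 8.72, 8.59 and 7.61 with control siRNA. Control replicate 4 lay within the range of the TRPM2-AS siRNA arrays, and the fold was 1.93 lower (limma adjusted p = 0.0082). The other UGGT1 probe gave a log2 fold change of -1.09 and again a control replicate 4 below the other controls, at 7.04 against 8.01 to 8.12. MOGS, the glucosidase that removes the outermost glucose, read 7.67, 7.19 and 7.47 with TRPM2-AS siRNA, against 7.83, 7.80, 8.45 and 8.26 with control siRNA, 1.56-fold lower (limma adjusted p = 0.0103), without overlap.

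The 2 best known lectin chaperones did not pass. CANX, which encodes the membrane-bound calnexin, read 9.09, 9.04 and 8.80 with TRPM2-AS siRNA and 9.42, 9.28, 9.36 and 9.03 with control siRNA (log2 fold change -0.30, 95% interval -0.59 to -0.01, limma adjusted p = 0.0709), and the lowest control lay among the TRPM2-AS siRNA values. A dimmer CANX probe passed on its own (log2 fold change -0.40, limma adjusted p = 0.0169 over all probes). CALR, which encodes its soluble counterpart calreticulin, read 11.59, 11.17 and 11.37 with TRPM2-AS siRNA and 11.37, 11.30, 11.05 and 10.99 with control siRNA, overlapping values with a log2 fold change of 0.20 (-0.11 to 0.51, limma adjusted p = 0.257). The glucosidase II subunits GANAB (0.16, -0.09 to 0.40) and PRKCSH (0.02, -0.24 to 0.27) did not pass either. PRKCSH was the only member whose 2 kept probes differed in sign, the dimmer giving -0.35 with a limma adjusted p of 0.132.

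The oligosaccharyltransferase showed small changes in both directions. STT3B, the catalytic subunit of the form that acts after translation, read 10.20, 9.49 and 9.75 with TRPM2-AS siRNA, against 9.40, 9.30, 9.16 and 9.43 with control siRNA, 1.40-fold higher (limma adjusted p = 0.0227). MAGT1, an oxidoreductase subunit of that same form, read 10.04, 10.12 and 9.85 with TRPM2-AS siRNA, against 10.70, 10.50, 10.43 and 10.13 with control siRNA, 1.35-fold lower (limma adjusted p = 0.024). The shared subunit RPN2 read 9.63, 9.75 and 9.81 with TRPM2-AS siRNA and 9.89, 10.22, 9.96 and 10.21 with control siRNA, 1.26-fold lower (limma adjusted p = 0.036). Groups did not overlap in these 3 genes, though in MAGT1 only just (10.12 against a lowest control of 10.13), and the calls depended on single arrays. STT3B lost its call without TRPM2-AS siRNA replicate 1 or control siRNA replicate 3, and MAGT1 without TRPM2-AS siRNA replicate 4 or control siRNA replicate 1 or 2. RPN2 lost its call without any 1 of TRPM2-AS siRNA replicates 1, 2 and 4 and control siRNA replicates 2 and 4. It also lost its call with scaling to 1 median per array and with no filter on dim probes. STT3A, the catalytic subunit of the form that works with the translocon, had a log2 fold change of 0.31 and missed the threshold (limma adjusted p = 0.0526), though its groups did not overlap. RPN1 (-0.19), DDOST (-0.09), DAD1 (0.23) and OSTC (0.20) were not called.

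The subunits of the translocon-associated protein complex (TRAP), which helps some signal sequences enter the channel, did not change alike. SSR2, its beta subunit, read 8.90, 9.0 and 9.10 with TRPM2-AS siRNA, against 11.21, 11.34, 10.94 and 11.14 with control siRNA, 4.46-fold lower (log2 fold change -2.16 ± 0.12 SE, limma adjusted p = 1.62e-07). A dimmer SSR2 probe gave -0.99 (limma adjusted p = 7.07e-05), in the same direction, and a further probe was detected on 0 arrays. SSR3, the gamma subunit, read 7.95, 7.96 and 8.05 with TRPM2-AS siRNA, against 6.92, 6.46, 5.83 and 6.82 with control siRNA, where 3 of 4 arrays detected it. It was 2.78-fold higher (log2 fold change 1.48 ± 0.22 SE, limma adjusted p = 0.000167), or 0.84 on the log2 scale in the authors' processed values. SSR1, the alpha subunit, had a log2 fold change of 0.17 (-0.10 to 0.44) and SSR4, the delta subunit, 0.31 (0.01 to 0.62, limma adjusted p = 0.0764).

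Of the channel itself, SEC61A1, the pore subunit, read 12.57, 12.88 and 12.83 with TRPM2-AS siRNA, against 12.17, 12.26, 12.46 and 12.47 with control siRNA, 1.34-fold higher (limma adjusted p = 0.0159). SEC61B, its beta subunit, read 13.28, 13.09 and 13.23 with TRPM2-AS siRNA, against 12.69, 12.77, 12.90 and 13.07 with control siRNA, 1.27-fold higher (limma adjusted p = 0.0349). Both pairs of groups lay apart, SEC61B by 0.02, but SEC61A1 lost its call without TRPM2-AS siRNA replicate 2 or 4. SEC61B lost its call without TRPM2-AS siRNA replicate 1 or 4 or control siRNA replicate 1 or 2, and with no filter on dim probes. SEC62, which serves entry after translation, had a log2 fold change of -0.21 (-0.50 to 0.08).

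Of the 10 ERAD members tested, DERL1, SYVN1, SELENOS, EDEM1 and EDEM3 were called higher. DERL1, a membrane protein of the retrotranslocation channel, read 11.88, 11.82 and 11.78 with TRPM2-AS siRNA, against 10.95, 10.90, 10.74 and 10.74 with control siRNA, 1.99-fold higher (log2 fold change 1.0 ± 0.11 SE, limma adjusted p = 1.84e-05). SYVN1, the ubiquitin ligase HRD1 at the centre of the complex, read 10.40, 11.02 and 10.88 with TRPM2-AS siRNA, against 9.88, 9.69, 10.02 and 9.93 with control siRNA, 1.85-fold higher (limma adjusted p = 0.000522), and its other probe gave a log2 fold change of 1.21. SELENOS, a selenoprotein that brings the ATPase VCP to the membrane, read 12.71, 12.76 and 12.64 with TRPM2-AS siRNA, against 11.91, 12.05, 12.05 and 12.09 with control siRNA, 1.6-fold higher (limma adjusted p = 0.000253). In each of the 3 genes all TRPM2-AS siRNA values exceeded all control values.

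The mannose-trimming factors that mark glycoproteins for disposal were higher in part. EDEM1 read 8.75, 8.52 and 8.78 with TRPM2-AS siRNA, against 7.55, 8.08, 8.15 and 8.48 with control siRNA, 1.54-fold higher (limma adjusted p = 0.0151). EDEM3 read 6.77, 6.88 and 7.25 with TRPM2-AS siRNA, against 6.62, 6.52, 6.26 and 6.55 with control siRNA, 1.40-fold higher (limma adjusted p = 0.0141), and lost its call without TRPM2-AS siRNA replicate 4. Both genes were without overlap, whereas EDEM2 overlapped and had a log2 fold change of -0.21 (-0.55 to 0.13).

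Other ERAD members did not pass: the scaffold SEL1L (-0.10), the lectins OS9 (0.21) and ERLEC1 (0.05), and DERL2 (0.27, limma adjusted p = 0.0507), whose groups did not overlap. The 2 DERL2 probes differed in size. The brighter one, used in the comparison, read 10.18, 10.30 and 10.43 with TRPM2-AS siRNA and 10.04, 10.07, 10.00 and 10.01 with control siRNA. The dimmer one read 9.02, 8.62 and 8.49 with TRPM2-AS siRNA and 7.45, 6.80, 7.48 and 7.01 with control siRNA, a log2 fold change of 1.52 (limma adjusted p = 4.92e-05 over all probes). Of 10 members with 2 kept probes, DERL2 and CANX were the ones whose probes fell on different sides of the threshold.

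TRPM2-AS siRNA replicate 3 is in the authors' processed table but was not part of the comparison. For 16 of the 17 members called higher, its processed value lay above all 4 control samples, as did 94.5% of all genes called higher. For 7 of the 8 members called lower it lay below all controls, as did 94.8% of all genes called lower. HSPA5 read 11.58 in this sample against 10.04 to 10.30 in the controls on the authors' log2 scale, ERO1A 12.10 against 9.88 to 10.28, MLEC 9.17 against 11.92 to 12.20 and SSR2 9.50 against 11.04 to 11.42. The exceptions were EDEM1 (8.82, with a highest control of 8.87) and MOGS (8.41, with a lowest control of 8.38). The controls are the same samples as in the comparison. The raw column that matched no sample read above every control for 5 of the 17 members called higher, against 44.4% of all genes called higher, and below every control for 1 of the 8 called lower, against 40.8% of all genes called lower.

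**Figure D5:**
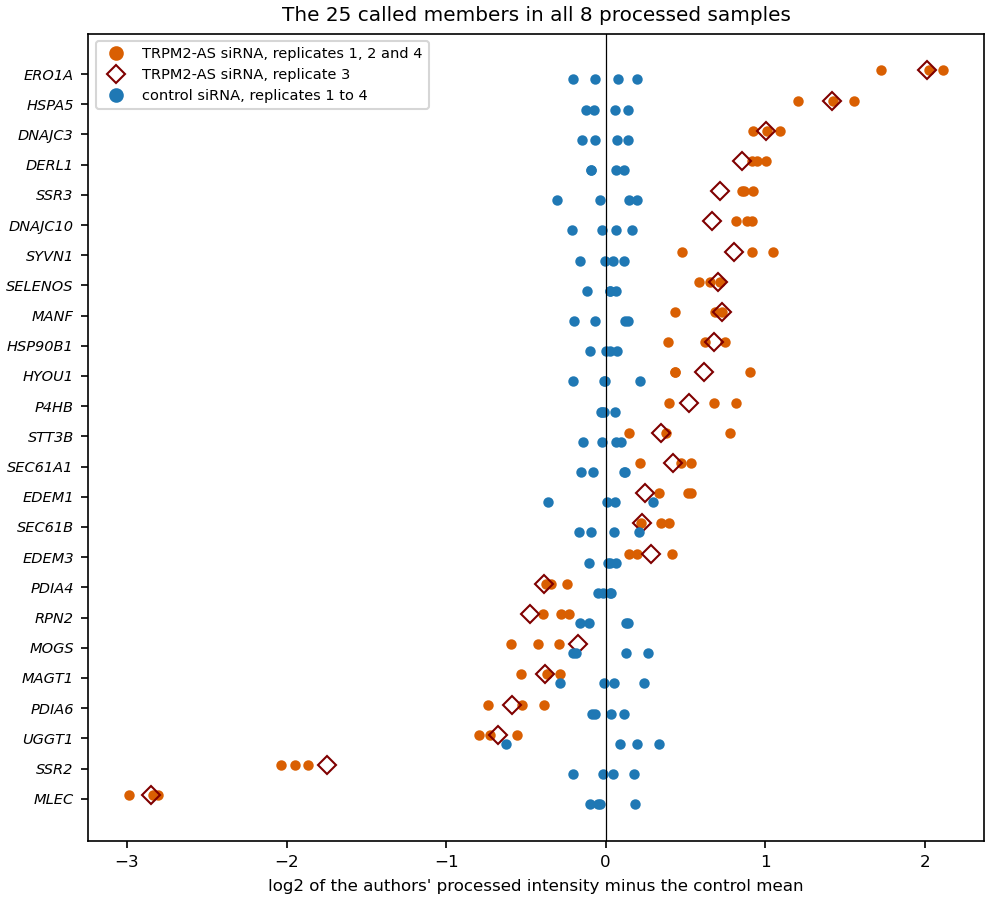
Log2 of the authors' processed intensity minus the mean of the 4 control samples (x axis) for each of the 25 called members, with TRPM2-AS siRNA replicates 1, 2 and 4 in orange, replicate 3 as open diamonds and the controls in blue. The diamonds lie beyond the controls for all members but EDEM1 and MOGS.

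Genes around the members in the same pathways changed in both directions. In all, 120 of 149 further genes in 6 lists were tested, with 47 (39.2%) higher and 29 (24.2%) lower and a median log2 fold change of 0.16. The shares of all genes, to be read beside each list below, were 27.4% higher and 29.6% lower. Of 24 other ER folding enzymes and chaperones, 11 were higher (45.8%) and 5 lower (20.8%). The thioredoxin-type isomerase TXNDC5 was 5.36-fold lower (limma adjusted p = 3.21e-08), while DNAJB14, a membrane-bound J-domain protein, was 4.08-fold higher (limma adjusted p = 1.41e-06) and CLGN, a calnexin relative known from testis, 3.11-fold higher (limma adjusted p = 1.19e-06).

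Of 23 genes that build the lipid-linked sugar tree, 6 were higher (26.1%) and 9 lower (39.1%), with a median of -0.09. DPAGT1, which makes the first sugar transfer to dolichol phosphate, was 2.74-fold lower (limma adjusted p = 9.21e-07). ALG14, which anchors the enzyme of the next transfer, was 3.05-fold lower (limma adjusted p = 1.28e-06), and DOLPP1, which recycles dolichol pyrophosphate, 3.34-fold lower (limma adjusted p = 6.83e-06). Of 8 other oligosaccharyltransferase and glycan-trimming genes, 2 were higher and 1 lower. UGGT2, the paralogue of UGGT1, was 1.49-fold higher (limma adjusted p = 0.00516), so the log2 fold changes of the pair were 0.57 for UGGT2 and -0.95 for UGGT1. The mannosidase MAN1A1 was 1.28-fold higher (limma adjusted p = 0.0381). MAN1A2 was called lower (limma adjusted p = 0.00327), but only 1 of 3 arrays with TRPM2-AS siRNA detected it, against 4 of 4 with control siRNA, so the size of its difference rests on signals near background.

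Of 30 genes of signal recognition, signal peptidase and membrane insertion, 12 were higher and 6 lower. SRP72, a protein of the signal recognition particle, was 3.40-fold lower (limma adjusted p = 3.8e-07) and SRPRB, a subunit of its receptor, 2.44-fold lower (limma adjusted p = 4.01e-06). TRAM1, a membrane protein beside the SEC61 channel, was 3.06-fold higher (limma adjusted p = 3.94e-07). The other receptor subunit, SRPRA, named after its value was seen, was 2.56-fold lower (limma adjusted p = 4.12e-06).

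Of 25 other ERAD genes, 12 were higher and 5 lower. UBE2J1, the ubiquitin-conjugating enzyme that works with SYVN1, was 4.73-fold lower (limma adjusted p = 3.8e-07). The ligase MARCHF6 was 2.20-fold lower (limma adjusted p = 0.000185), and UBQLN1, a shuttle to the proteasome, 1.91-fold higher (limma adjusted p = 0.000208). Members of ERAD held 0 lower calls and these further genes 5; the difference between the lists was not tested.

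Of 13 sensors and factors of the unfolded protein response listed, 10 were tested. Of these, 4 were higher (40.0%, against 27.4% of all genes) and 3 lower (30.0%, against 29.6%). The sensors PERK and IRE1 were not among the 10. DDIT3, which encodes CHOP, was 3.19-fold higher (limma adjusted p = 6.1e-06), TRIB3, a CHOP target that binds AKT, 2.51-fold (limma adjusted p = 1.24e-05), and PPP1R15A, the GADD34 subunit that reverses eIF2alpha phosphorylation, 2.10-fold (limma adjusted p = 5.75e-05). The remaining genes were named after their values were seen. ATF4 was 1.68-fold higher, whereas the sensor ATF6 was 1.28-fold lower and the proteases that cleave it were 1.47-fold (MBTPS1) and 2.06-fold lower (MBTPS2), with limma adjusted p of 0.000189 for ATF4, 0.0167 for ATF6, 0.000737 for MBTPS1 and 9.19e-05 for MBTPS2. XBP1 (log2 fold change 0.17, limma adjusted p = 0.204), CREB3L2 (0.18) and WFS1 (-0.19) did not pass. When the raw column that matched no sample was added to the fit, 0 genes of this list were called higher and 0 lower. In that fit 25.3% of all genes were called changed. An array probe does not measure splicing of XBP1 or cleavage of ATF6.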

How the data were processed

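Total RNA of PC3 cells was measured on 1-colour Illumina arrays, 4 samples per siRNA. The authors deposited non-normalized intensity per probe with a detection p-value beside each signal, a BeadStudio output according to the submitters' processing notes. They also deposited a processed intensity table of all 8 samples that, from the values, was quantile normalized without background subtraction (with limma, per those notes). The sources used here give no versions.

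Columns were matched to samples by exact rank over 48798 shared probes: 7 of 8 matched a sample of their own named group. Signals were corrected with limma 3.58.1 (R 4.3.3) by normexp from the detection p-values with an offset of 16, quantile normalized and log2-transformed. Probes with a detection p-value under 0.01 on at least 4 of 7 arrays were kept (13675), 11864 of them with 1 gene name, and the probe with the highest mean stood for each of 9272 genes. A probe could thus be kept on the control arrays alone but not on the TRPM2-AS siRNA arrays alone. Of the shared probes, 28094 had 1 symbol, 13 several and 20691 none. All genes were fitted with lmFit and eBayes (two-sided, Benjamini-Hochberg). The fit was tested on simulated data. Over all genes the standard error of the log2 fold change had a median of 0.14, and the number of arrays limits the precision. The design assumed no pairing, since it is not stated whether replicate numbers pair the samples. Correlations of deviations between same-numbered samples were 0.392, -0.0723, 0.093 and 0.229 for replicates 1 to 4. Samples of replicates 1 and 4 both correlated best with their own number, and those of replicates 2 and 3 did not both do so. Alternatives varied background, normalization, filter, probe choice, variance model, values and arrays.

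The members and lists were chosen with earlier results of these data known. The rule for named genes gave array values for the 12 highest and 12 lowest called members, HSPA5, HSP90B1, CALR and CANX, and named up to 3 genes with the smallest p in each further list. Array values of the second DERL2 and UGGT1 probes were added after values were seen.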

Additional observations from a re-analysis of the deposited data

Results flagged for a closer look

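The raw column numbered 2 under the TRPM2-AS siRNA name matched no sample and stood outside the comparison. Normalized with the other 7 arrays, it lay above every control array for 5 of the 17 members called higher (HSP90B1, P4HB, DNAJC10, STT3B and EDEM3) and below every control for 1 of the 8 called lower (MOGS), against 44.4% of all genes called higher and 40.8% of all genes called lower. It was nearer to the control mean than to the TRPM2-AS siRNA mean for 21 of the 25, and the same share over all called genes was not computed. HSPA5 read 10.10 there, against 9.86 to 10.15 on the controls as normalized for the comparison. ERO1A, called higher, read 9.06 against 9.68 to 10.12, and MLEC, called lower, 12.63 against 11.86 to 12.13. For ERO1A and MLEC the column's value thus lay outside those control ranges, on the side away from the call. Column and controls were normalized separately for these values, so their scales can differ slightly. Why this column differs was not tested. In 0 of the 47 members did a control array stand apart from the others by Dixon's test, where chance alone marks about 5% of groups.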

How the results depend on the processing

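Of the 25 called members, 19 kept their call and direction in every alternative except the fit with all 8 columns under their names, and 7 kept it there too (SSR2, HSP90B1, DNAJC10, DERL1, SSR3, HSPA5 and DNAJC3). That fit, which adds the column matching no sample, gave 2347 changed genes, with 6 members higher and 1 lower; ERO1A then had a limma adjusted p of 0.127 and MLEC of 0.0597, the highest among their alternatives, whose lowest were 8.57e-12 and 1.91e-14. Calls in each list of further pathway genes also fell with all 8 columns, to 0 higher and 0 lower for the unfolded protein response genes. Leaving out each array in turn gave 4808 to 5123 changed genes, 14 to 18 members higher and 6 to 9 lower. Without TRPM2-AS siRNA replicate 4, 1 translocon and TRAP member was higher in place of 3, and oligosaccharyltransferase calls ranged over all alternatives from 0 to 4 higher and 0 to 2 lower. The calls lost elsewhere were RPN2, SEC61B, MAGT1, SEC61A1, STT3B and EDEM3, all under 1.5-fold. Of the 22 members not called, 12 passed in at least 1 alternative, among them DERL2 and STT3A in 9 each. The authors' processed values of 8 samples gave 22 members higher and 10 lower of 47 (5707 genes changed), and with the replicate number as a block 25 higher and 10 lower (6011 genes changed). Samples of replicates 1 and 4 both correlated best with their own number, and those of replicates 2 and 3 did not both do so. Pairing by number therefore stayed undecided. No called member changed sign in any of the 19 alternatives. Signals near background limit SSR3 and DNAJC3, whose log2 fold changes ranged from 0.84 to 1.6 and from 0.99 to 2.02.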
